A study of Homo sapiens with 6 samples.

Results

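The nuclear genes of respiratory complexes II to V were described together with C15orf48 in cells of the HMCB melanoma line that had received AHCYL1 siRNA or control siRNA. The genes were taken by name: succinate dehydrogenase, complex III, cytochrome c, cytochrome c oxidase and ATP synthase subunits, the assembly factors whose symbols carry the same stems, and NDUFA4 with its paralogs NDUFA4L2 and C15orf48. The members numbered 69 of 26902 genes measured, after 2 pseudogenes with matching names were left out. C15orf48 was selected on its rise in this comparison, and the other members were grouped with it after results of the same comparison were known. The calls and fold changes below therefore describe these libraries and support nothing beyond them.

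HMCB is an established human melanoma cell line, and its genotype is labelled Nras Q61K in all libraries. The control group (siNC, 3 libraries) had the control siRNA and the siAHCYL1 group (3 libraries) had the AHCYL1 siRNA, both for 3 days before RNA was taken. The series asks how AHCYL1, an IP3 receptor-binding protein of the endoplasmic reticulum, promotes growth of NRAS-mutant melanoma cells. A single cell line was used. Neither the siRNA sequences nor whether 1 siRNA or a pool was used could be read from the sources used here. The labels call the replicates biological and name no separate cultures, so p-values measure only the spread between these samples.

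The respiratory chain passes electrons from NADH or succinate through ubiquinone, complex III and cytochrome c to complex IV, which reduces oxygen, and complex V uses the resulting proton gradient to make ATP. Complex IV holds NDUFA4, a small subunit once assigned to complex I. C15orf48, also known as NMES1 or MOCCI, is a paralog known from inflamed tissue that can take the place of NDUFA4, and its transcript also carries the precursor of the microRNA miR-147b. Most other members are expressed in nearly all cells, while a few complex IV subunits have muscle, lung or testis forms. The subunits encoded by mitochondrial DNA were not analysed here.

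The C15orf48 locus holds both products, and its sequences are shown because this gene had the largest difference among the members. The mature miR-147b-3p (RefSeq, GRCh38.p14, chr15:45433098-45433118, plus strand) lies with all 21 bases inside the 3′ UTR of C15orf48, in exon 4 of 4 of the transcript. In its sequence the seed, bases 2 to 8, is in capitals.
hsa-miR-147b-3p: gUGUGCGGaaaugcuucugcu
The complement of that seed, CCGCACA, was searched on the transcript strand of the 3′ UTRs of 1 GENCODE transcript per gene. It occurred in the 3′ UTR of 304 of 12269 tested genes with such a sequence (2.48%) and in 2 of 62 tested members (3.23%), NDUFA4 and SDHAF2. The match in NDUFA4 starts at base 56 of a 1685-base 3′ UTR (chr7:10933563-10933591, minus strand) and that in SDHAF2 is at chr11:61447127-61447155, plus strand. The seed complement is in capitals in both.
NDUFA4 3′ UTR: agaagccacatCCGCACAattttccactt
SDHAF2 3′ UTR: gattataggagCCGCACAcagggactaca
A match is a description of letters, not a measured target site, and mature microRNAs were not measured in these libraries.

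The promoter of C15orf48 is shown beside that of NDUFA4 because their transcripts differed so much in response. Each stretch covers 250 bases before to 50 bases after the start site in RefSeq (GRCh38.p14). That of C15orf48 is chr15:45430360-45430659, plus strand, with a match to the TATA box core TATANAA in capitals, starting 30 bases before the start site. That of NDUFA4 is chr7:10940104-10940403, minus strand, and holds none of the 5 motifs searched.
C15orf48 promoter: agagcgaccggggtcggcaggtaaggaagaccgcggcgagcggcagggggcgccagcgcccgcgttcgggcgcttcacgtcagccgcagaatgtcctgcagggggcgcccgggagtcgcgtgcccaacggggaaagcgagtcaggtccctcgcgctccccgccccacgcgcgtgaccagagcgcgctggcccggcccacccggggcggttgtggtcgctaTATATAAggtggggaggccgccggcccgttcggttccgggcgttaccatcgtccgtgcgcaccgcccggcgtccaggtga
NDUFA4 promoter: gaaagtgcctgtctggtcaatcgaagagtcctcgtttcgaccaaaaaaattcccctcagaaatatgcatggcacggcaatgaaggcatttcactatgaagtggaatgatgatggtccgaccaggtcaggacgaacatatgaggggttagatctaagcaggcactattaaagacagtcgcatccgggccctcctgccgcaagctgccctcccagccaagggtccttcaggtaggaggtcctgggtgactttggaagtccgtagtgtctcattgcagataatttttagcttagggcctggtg
The 2 stretches differ in base composition, with 73.3% G and C in C15orf48 and 50.7% in NDUFA4, against a median of 58.7% over 35116 promoters. The TATA core, searched on both strands and chosen after the C15orf48 sequence had been seen, occurred in 9.1% of all promoters of this length and in 3 of 60 member promoters (5.0%). The other 2 were COX7A2 and COX7B, where it lay on the opposite strand.

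The siRNA target was lower in all siAHCYL1 libraries. AHCYL1 had 150.02, 134.05 and 131.09 TPM (a transcript level per length, scaled to the same total in each library) in siNC and 13.45, 11.13 and 10.97 TPM in siAHCYL1. In limma it fell by 3.44 on the log2 scale, with a standard error (SE) of 0.096 and an adjusted p of 5.64e-08. The exact two-sided permutation p of 0.1 is the smallest that 3 against 3 allows. Between 13035 and 13189 genes reached 1 TPM per library, and depth is unknown because TPM keeps none. Of 8 melanocytic markers, 6 reached 1 TPM in some library, with a summed level of 1061 to 1085 TPM in siNC and 1036 to 1078 TPM in siAHCYL1, and the pigment enzyme gene TYR was at 0 in all 6. Summed leukocyte markers were 3.71 to 4.18 TPM in siNC and 7.64 to 11.2 TPM in siAHCYL1 (CD3E at 0), and fibroblast markers 12.9 to 15.4 and 25.5 to 32.2 TPM (PDGFRA at 0). Red blood cell markers were 9.95 to 24.2 TPM in siNC and 3.71 to 9.08 TPM in siAHCYL1 (HBB and HBA2 at 0). Their part in the results was not tested.

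Among the members, more genes rose than fell. Of 62 tested members 20 rose, 5 fell and 37 did not pass, at an adjusted p under 0.05 over 13266 genes. Over all tested genes 51.6% were called, 30.4% higher and 21.2% lower, and of the members 40.3% were called. Without siNC replicate 2, or without siAHCYL1 replicate 3, 3 members fell in place of 5. Over all genes 2244 and 2337 fell in these settings, in place of 2814. An alternative chosen after seeing the data took out, in each library, the trend of deviations from gene means over transcript length and base composition. There 19 members rose and 11 fell, and over all genes 3940 rose and 3818 fell, against 4030 and 2814. Under median-of-ratios scaling 19 members rose and 8 fell, and over all genes 3652 rose and 3542 fell. The median over all genes moved to 0.0045 there. Under quantile normalization 21 members rose and 7 fell, and over all genes 3471 rose and 3743 fell. The median log2 fold change was 0.07 over the members and 0.06 over all genes tested. Only C15orf48 and COX20 were called and differed at least 2-fold, where 8.36% of all genes did. The siNC and siAHCYL1 libraries did not overlap in 32 of 62 members and in 59.2% of all genes, and in all 25 called members they did not. In bulk samples less RNA per cell and fewer cells of a kind cannot be told apart, and TPM gives a share of the RNA and not an amount.

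**Figure D1:**
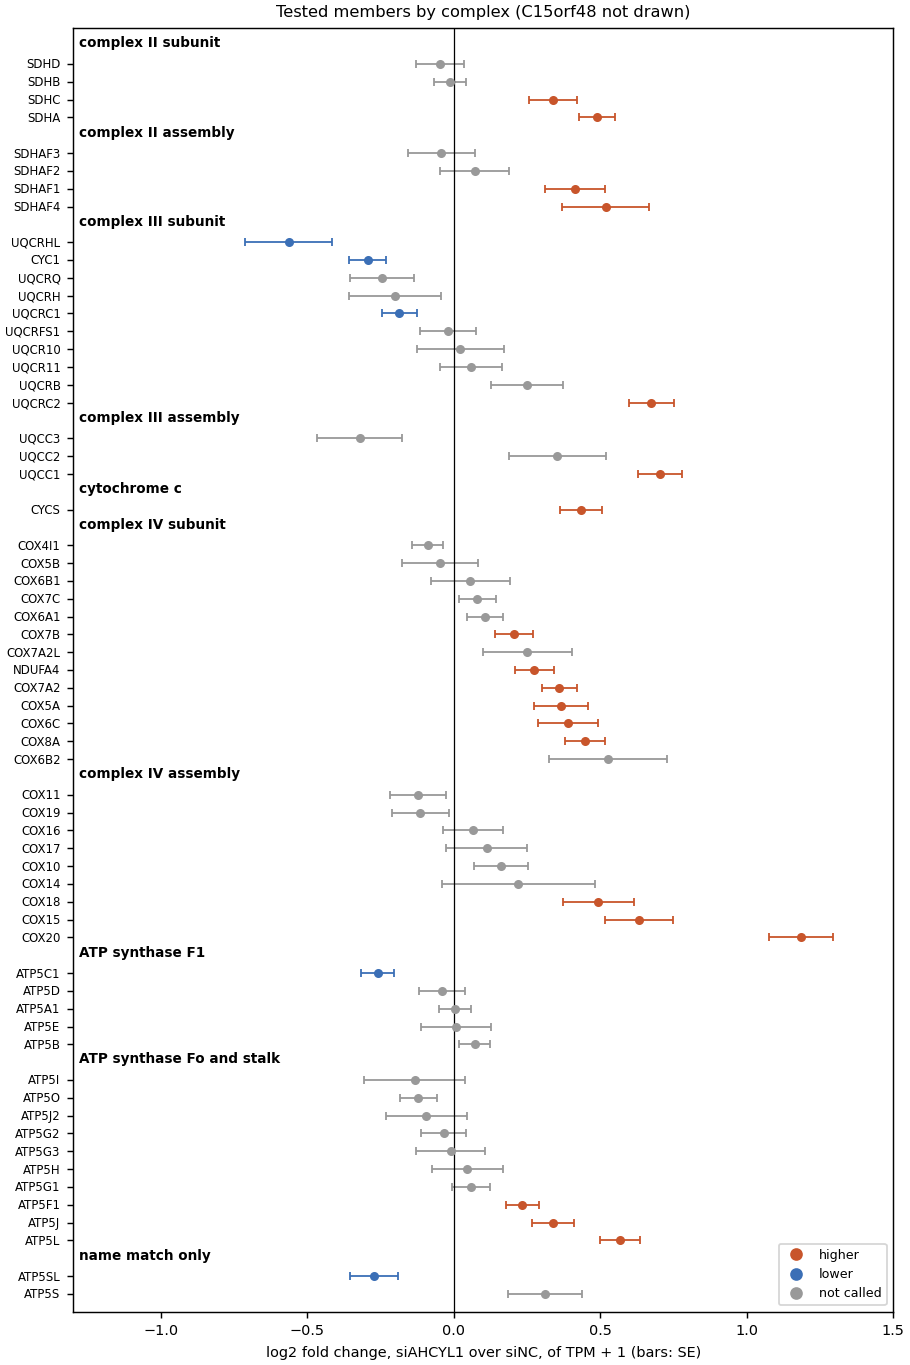
Log2 fold change on log2(TPM + 1) of each tested member except C15orf48, by complex and role, with bars for the SE from limma over 3 siNC and 3 siAHCYL1 libraries and colours for the call. COX20 lies farthest to the right at 1.18, and the calls to the left are ATP5C1, CYC1, UQCRC1, UQCRHL and ATP5SL.

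C15orf48 had by far the largest difference of any member, and the paralog it can replace rose as well. C15orf48 (chr15:45430610-45433340) had 6.05, 2.54 and 4.33 TPM in siNC and 72.14, 88.7 and 86.07 TPM in siAHCYL1. Each siAHCYL1 library was more than 10 times above the highest control. Mean levels were 4.31 ± 1.76 TPM in siNC and 82.3 ± 8.90 TPM in siAHCYL1 (SD, n = 3), a ratio of 19.1 in TPM. Its log2 fold change of 4.02 (SE 0.21) was taken after adding 1 TPM, and so understates the change of a gene this low in the controls.

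NDUFA4 (chr7:10931943-10940153) had 120.08, 132.08 and 129.22 TPM in siNC and 157.36, 158.51 and 146.03 TPM in siAHCYL1. All siAHCYL1 libraries lay above all controls, at 154 ± 6.90 against 127 ± 6.27 TPM and a ratio of 1.21. NDUFA4L2, a paralog known to be induced by low oxygen, had 0.36, 0.29 and 0.47 TPM in siNC and 0.81, 0.3 and 0 TPM in siAHCYL1. It did not reach 1 TPM in any library and was not tested.

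Within the NDUFA4 family the make-up of the transcripts differed between the groups. C15orf48 made up 4.78%, 1.88% and 3.23% of the family's summed TPM in siNC and 31.3%, 35.8% and 37.1% in siAHCYL1. The share of NDUFA4 was 96.4 ± 1.48% in siNC and 65.1 ± 2.85% in siAHCYL1, although its own level was higher there. For each TPM of C15orf48 the controls had 19.8, 52.0 and 29.8 TPM of NDUFA4, and the siAHCYL1 libraries had 2.18, 1.79 and 1.70. The summed level of the family was 132 ± 4.63 TPM in siNC and 237 ± 9.46 TPM in siAHCYL1. NDUFA4 transcripts thus remained the more abundant of the pair in every library.

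**Figure D2:**
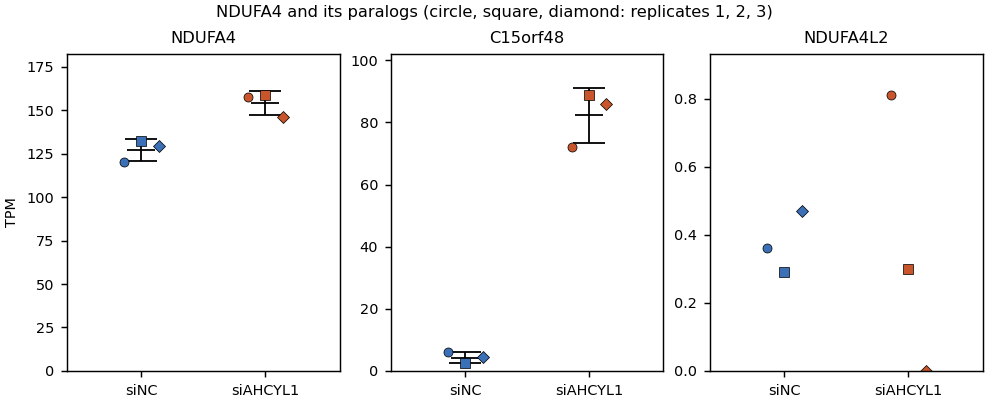
TPM of C15orf48, NDUFA4 and NDUFA4L2 in each of 3 siNC and 3 siAHCYL1 libraries (points), with mean and SD where drawn. C15orf48 sits between 2.54 and 6.05 TPM in siNC and between 72.14 and 88.7 TPM in siAHCYL1, and NDUFA4 between 120.08 and 132.08 and between 146.03 and 158.51 TPM.

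The genes beside C15orf48 were read for comparison. SPATA5L1, a AAA ATPase gene that ends before C15orf48 begins, had 19.39, 20.57 and 16.25 TPM in siNC and 23.41, 20.99 and 22.27 TPM in siAHCYL1, and was not called (log2 fold change 0.24, 95% confidence interval 0.0023 to 0.48). GATM, a creatine synthesis enzyme gene, stayed at or under 0.55 TPM in every library. The separate row of the miR-147b precursor, MIR147B, was listed at 0 in all 6 libraries, and reads of a precursor inside an exon can also be counted to the host transcript. The non-directional libraries do not tell strands apart.

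Complex IV subunits were called in a share close to that of all genes. Of the 14 tested complex IV subunits, C15orf48 and NDUFA4 included, 7 rose, 0 fell and 7 were not called (median log2 fold change 0.26). Called were 7 of 14, against 51.6% of all genes (30.4% higher and 21.2% lower). COX8A, the common form of COX8, had 811.73, 846.41 and 922.03 TPM in siNC and 1108.72, 1243.69 and 1167.43 TPM in siAHCYL1. The groups were well apart, at a ratio of 1.36. The structural subunits COX6C (376 ± 47.4 to 493 ± 47.3 TPM) and COX5A (319 ± 39.3 to 410 ± 26.2 TPM) rose, as did COX7A2 (428 ± 23.1 to 548 ± 14.2 TPM). COX7B rose from 780 ± 54.7 to 899 ± 31.3 TPM, and its call was lost in 7 of 15 alternatives, among them leaving out siNC replicate 1 or 3 or siAHCYL1 replicate 2 or 3. COX6C has 18 pseudogenes named after it in RefSeq, and 36 of 62 tested members have at least 1. Reads that match several copies make the levels of such members uncertain.

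The 7 complex IV subunits that were not called included the most abundant one. COX7C had 1458 ± 40.7 TPM in siNC and 1543 ± 96.7 TPM in siAHCYL1 (log2 fold change 0.08, 95% confidence interval -0.06 to 0.22). COX4I1, which carries a site for allosteric control of the enzyme by ATP, had 571.77, 598.7 and 576.35 TPM in siNC and 553.12, 557.79 and 530.54 TPM in siAHCYL1. All 3 siAHCYL1 libraries were below the controls without passing (log2 fold change -0.09, interval -0.21 to 0.03), and it was called lower under median-of-ratios scaling and after the length and GC trend was taken out. COX5B, COX6A1, COX6B1 and the supercomplex factor COX7A2L overlapped between the groups, with log2 fold changes from -0.05 to 0.25.

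Subunit forms of other tissues were at or near 0 in both groups. COX4I2 of lung, COX6A2 of heart and muscle, and COX7B2 and COX8C of testis were listed at 0 in all 6 libraries. COX7A1 of heart and muscle was at 0.23 TPM in 1 control library and at 0 in the other 5. COX6B2, the testis form of COX6B, had 0.78, 1.51 and 1.79 TPM in siNC and 2.3, 2.62 and 2.11 TPM in siAHCYL1. The groups did not overlap, it was not called, and it made up 0.26 ± 0.083% of COX6B transcripts in siNC and 0.45 ± 0.0997% in siAHCYL1. Of the subunit pairs examined in complex IV, the NDUFA4 family was the 1 in which the second form made up more than 1% of the transcripts.

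**Figure D3:**
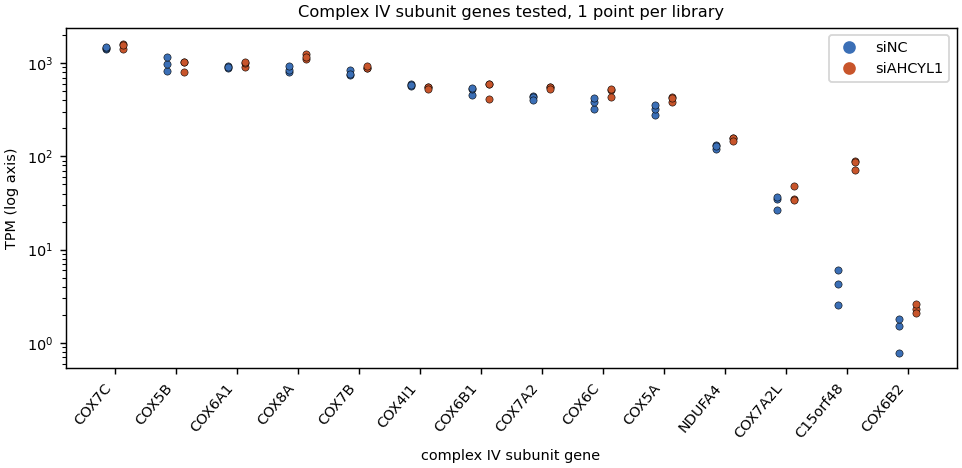
Level in TPM of the tested complex IV subunits on a log axis, one point per library, siNC and siAHCYL1 side by side. Control means span from 1.36 TPM for COX6B2 to 1458 TPM for COX7C, and C15orf48 alone moves across more than a 10-fold range between the groups.

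COX20 had the largest difference after C15orf48. It encodes a chaperone of COX2, the mitochondrially encoded copper-binding subunit of complex IV. COX20 (chr1:244835306-244845063) had 15.95, 20.09 and 21.48 TPM in siNC and 45.76, 43.97 and 43.88 TPM in siAHCYL1. Every siAHCYL1 library was above 40 TPM, while no control exceeded 21.48, and the mean went from 19.2 ± 2.88 to 44.5 ± 1.06 TPM (log2 fold change 1.18, SE 0.11).

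Of 9 complex IV assembly factors 3 rose and 0 fell, and the other 2 besides COX20 act on heme and membrane insertion. The share called was 33.3%, against 51.6% of all genes. COX15, which makes heme A, had 11.13, 11.23 and 8.92 TPM in siNC and 16.67, 15.35 and 17.98 TPM in siAHCYL1. COX18, which inserts COX2 into the inner membrane, had 8.8, 8.62 and 10.35 TPM in siNC and 15.11, 13.27 and 11.96 TPM in siAHCYL1. Both were higher in all siAHCYL1 libraries, by 0.63 and 0.49 on the log2 scale. COX10, which acts just before COX15 in heme A synthesis, did not pass (17.6 ± 0.73 and 19.9 ± 1.51 TPM), nor did the copper factors COX11, COX17 and COX19. COX17 was called higher without siAHCYL1 replicate 1 (log2 fold change 0.29 in place of 0.11) and without replicate 1 of both groups, and COX19 was called lower after the length and GC trend was taken out (-0.22). The summed TPM of complex IV genes with their assembly factors was 7777 ± 452 in siNC and 8823 ± 507 in siAHCYL1. The libraries of the 2 groups did not overlap in TPM, at 7277 to 8158 and 8247 to 9205, but the gap was narrow. Median-of-ratios scaling divides siNC replicate 3 (8158) by 0.96 and siAHCYL1 replicate 1 (8247) by 1.08, after which the groups overlap.

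Outside the name rule, 25 further complex IV assembly and mRNA factors were tested, of which 6 rose and 3 fell (median log2 fold change 0.07). Over all genes 30.4% rose and 21.2% fell. Under quantile normalization 5 rose and 5 fell, and after removal of the length and GC trend 6 rose and 5 fell. HIGD2A, a supercomplex assembly factor, rose from 152 ± 13.9 to 241 ± 9.68 TPM. CMC1 (0.52) and HIGD1A (0.42) rose as well, and TMEM177, which works with COX20 on COX2, fell (-0.54). COX20 and TMEM177 thus went opposite ways. COX20 also holds the 7-mer GTATGCA in its 3′ UTR, a sequence whose carriers more often fell in earlier results of these data and which was chosen for that reason. It is in capitals here (chr1:244843724-244843752, plus strand).
COX20 3′ UTR: tttttggggaaGTATGCAgggtttaaatt
Of 12269 genes with a 3′ UTR sequence 921 (7.51%) held it, of which 182 rose and 372 fell, and the members with it were COX20, which rose, and UQCRB, which was not called.

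Complex III subunits were called in both directions, and its 2 core protein genes went opposite ways. Of 10 tested subunits, the copy UQCRHL included, 1 rose, 3 fell and 6 were not called (median log2 fold change -0.10). The share called was below the 51.6% of all genes (30.4% higher and 21.2% lower). UQCRC2 (core protein 2) had 260.37, 237.41 and 225.18 TPM in siNC and 415.66, 380.5 and 359.41 TPM in siAHCYL1. UQCRC1 (core protein 1), its partner in the core, had 375.43, 362.51 and 354.35 TPM in siNC and 337, 310.54 and 312.46 TPM in siAHCYL1. UQCRC1 was the higher of the pair in every control library, and UQCRC2 in every siAHCYL1 library. UQCRC2 rose by 0.67 on the log2 scale (SE 0.08). UQCRC1 fell by 0.19 (SE 0.06), a call lost in 5 of 15 alternatives, among them leaving out siNC replicate 1 or 2 or siAHCYL1 replicate 2 or 3.

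CYC1, the heme-bearing cytochrome c1, had 492.55, 493.09 and 514.48 TPM in siNC and 378.92, 433.58 and 411.86 TPM in siAHCYL1, lower in all 3. UQCRHL, an intronless copy of the hinge protein gene UQCRH, fell from 74.3 ± 15.7 to 49.5 ± 6.56 TPM. UQCRH itself had 166 ± 28.1 and 145 ± 28.8 TPM and was not called, and reads can be split between these near-identical genes in ways that leave both levels uncertain. UQCRHL held 30.8 ± 0.90% of their summed TPM in siNC and 25.6 ± 1.48% in siAHCYL1. The Rieske protein gene UQCRFS1, whose product passes electrons on to CYC1, overlapped between the groups at 128 ± 12.9 and 126 ± 12.2 TPM. The small subunits UQCR10, UQCR11, UQCRB and UQCRQ did not pass either, with log2 fold changes from -0.24 to 0.25. UQCRQ was called lower in 5 of 15 alternatives, among them leaving out siNC replicate 1, where its log2 fold change was -0.38 in place of -0.24. UQCRB had 0.12 in place of 0.25 without siNC replicate 1, and was called higher without siNC replicate 3 (0.38).

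The electron carrier cytochrome c and 1 of the 3 cytochrome b factors beside complex III rose. The share called among these 3 factors was 33.3%, against 51.6% of all genes. UQCC1, needed to make cytochrome b, had 33.84, 32.55 and 35.04 TPM in siNC and 57.01, 52.42 and 57.66 TPM in siAHCYL1. The groups were far apart compared with their spread, at a ratio of 1.65. UQCC2, the partner of UQCC1, overlapped (23.7 ± 6.11 and 30.0 ± 3.17 TPM) and was called higher without siNC replicate 3. UQCC3 had 11.3 ± 1.63 and 8.84 ± 1.39 TPM without passing, though it was called lower in 3 alternatives. CYCS, somatic cytochrome c, had 79.02, 79.84 and 81.36 TPM in siNC and 100.77, 116.97 and 108.66 TPM in siAHCYL1. It was higher in all siAHCYL1 libraries, and it has 45 pseudogenes named after it in RefSeq, the most of any member. Of 8 further complex III assembly factors outside the name rule 4 rose and 1 fell, where 30.4% of all genes rose and 21.2% fell. Among them C16orf91 (0.56), C12orf73 (0.70) and TTC19 (0.43) rose and OCIAD2 fell (-0.50), a call lost without siAHCYL1 replicate 1. Under quantile normalization, and after removal of the length and GC trend, 2 of the 8 fell.

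Of the 4 complex II subunits 2 rose, 0 fell and 2 did not pass. The share called was close to the 51.6% of all genes (30.4% higher and 21.2% lower). SDHA, the flavoprotein that oxidizes succinate, had 107.9, 107.41 and 99.13 TPM in siNC and 148.84, 146.21 and 146.7 TPM in siAHCYL1. SDHC, a membrane anchor, rose from 38.6 ± 2.90 to 49.0 ± 2.56 TPM. The iron-sulfur subunit SDHB and the other anchor SDHD were not called, SDHB at 198 ± 5.34 and 196 ± 0.49 TPM with a 95% confidence interval of -0.14 to 0.11 for its log2 fold change.

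Of the 4 complex II assembly factors 2 rose and 2 were not called. Here too the share called was close to the 51.6% of all genes (30.4% higher and 21.2% lower). SDHAF1, which helps insert iron-sulfur clusters into SDHB, rose from 23.6 ± 2.27 to 31.7 ± 2.88 TPM. SDHAF4, which helps SDHA bind SDHB, had 35.51, 57.67 and 51.27 TPM in siNC and 65.97, 69.2 and 68.95 TPM in siAHCYL1. Its siNC replicate 1 stood below the other controls, and its call was lost under quantile normalization. SDHAF2, which attaches flavin to SDHA and holds the seed complement shown above, was not called (75.0 ± 13.8 and 77.9 ± 2.57 TPM). The summed TPM of complex II with its factors was 556 ± 11.1 in siNC and 636 ± 8.59 in siAHCYL1.

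**Figure D4:**
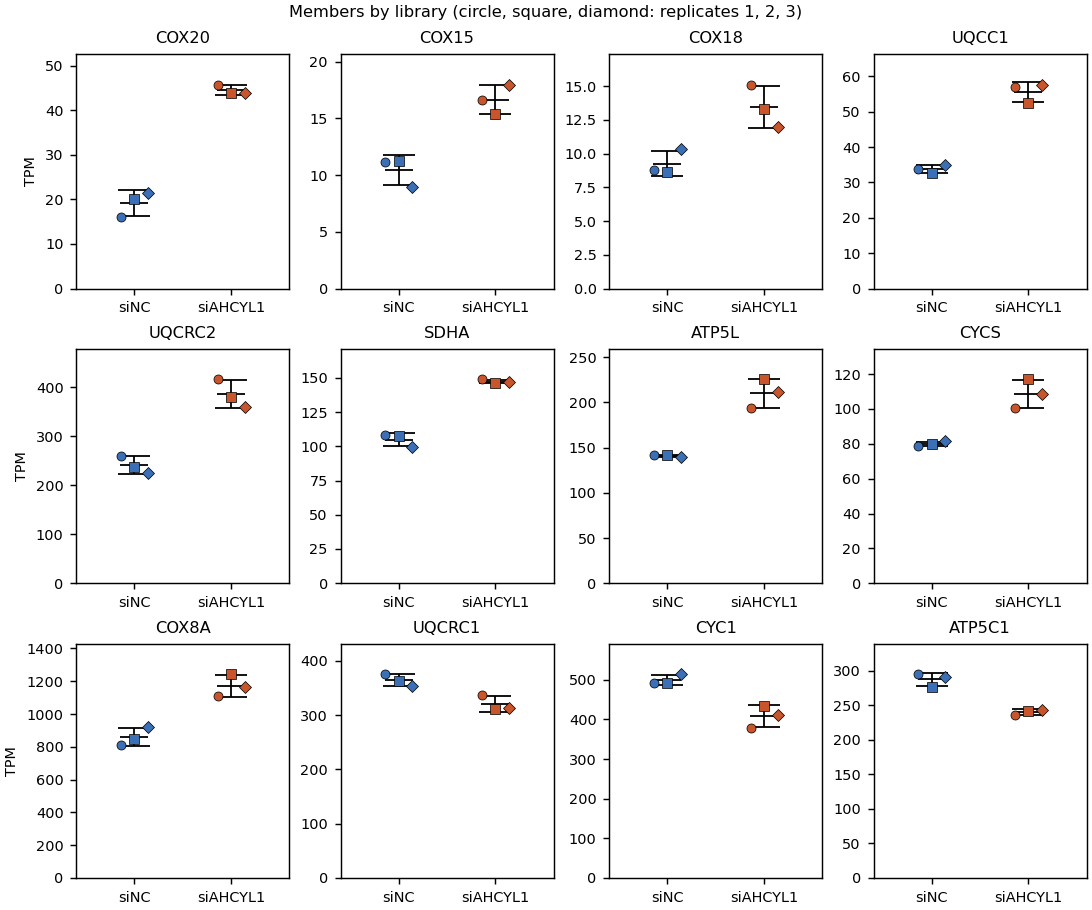
TPM per library of 12 members the text describes, siNC and siAHCYL1 side by side, with points for libraries and lines for the mean and SD over 3 libraries. UQCRC2 rises from 241 to 385 TPM while UQCRC1 falls from 364 to 320 TPM, and SDHA rises from 105 to 147 TPM.

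In ATP synthase 4 of 15 tested subunits were called (26.7%, against 51.6% of all genes). Of the 5 subunits of the catalytic F1 part 0 rose and 1 fell, and of 10 tested subunits of the membrane part and stalk 3 rose and 0 fell. ATP5C1, the gamma subunit that turns inside the catalytic head, had 294.84, 276.43 and 290.92 TPM in siNC and 235.28, 241.13 and 243.01 TPM in siAHCYL1. Each siAHCYL1 library was below each control, at 240 ± 4.03 against 287 ± 9.70 TPM. The alpha and beta subunits that surround it were not called. ATP5A1 (alpha) had 596 ± 8.69 and 598 ± 21.6 TPM, with a 95% confidence interval of -0.12 to 0.13 for its log2 fold change, and ATP5B (beta) had 1084 ± 33.2 and 1139 ± 10.7 TPM.

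The 3 ATP synthase subunits that rose belong to the stalk and membrane part. ATP5L (subunit g) had 141.65, 141.93 and 139.87 TPM in siNC and 193.36, 225.52 and 211.64 TPM in siAHCYL1, a ratio of 1.49. ATP5J (coupling factor 6) rose from 102 ± 6.30 to 129 ± 7.73 TPM, and ATP5F1 (subunit b of the stalk) from 148 ± 3.27 to 174 ± 2.81 TPM. ATP5O, the stalk's OSCP subunit, had 385 ± 14.6 and 354 ± 22.0 TPM without passing. It was called lower in 4 of 15 alternatives, among them leaving out siAHCYL1 replicate 1. The 3 genes of the identical c subunit kept their proportions within the spread. ATP5G1 made up 47.9 ± 1.64% of their transcripts in siNC and 49.4 ± 1.68% in siAHCYL1, and the shares of ATP5G2 were 40.9 ± 3.07% and 39.6 ± 2.36%. The summed TPM of ATP synthase members was 5944 ± 325 in siNC and 5942 ± 283 in siAHCYL1.

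Among 8 ATP synthase factors outside the name rule 3 rose and 1 fell, where 30.4% of all genes rose and 21.2% fell. The F1 assembly factors ATPAF1 (0.43) and ATPAF2 (0.39) rose, as did USMG5 (0.33), a small membrane subunit, and TMEM242 fell (-0.27), a call lost whichever of the 6 libraries was left out. ATPIF1, the inhibitor of ATP hydrolysis, spread too widely to be called, with 187.52, 244.31 and 319.37 TPM in siNC and 212.67, 424.29 and 412 TPM in siAHCYL1. Of the 2 members taken by their old names alone, ATP5SL, a complex I assembly factor, fell from 63.8 ± 3.77 to 52.7 ± 4.34 TPM, and ATP5S was not called. The call of ATP5SL was lost in 4 of 15 alternatives: without siNC replicate 2, without siAHCYL1 replicate 1, without siAHCYL1 replicate 3, and without replicate 1 of both groups.

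Assembly factors are not part of the finished complexes, and they were called as follows. Of 16 assembly factors of complexes II to IV 6 rose and 0 fell (37.5% called, median log2 fold change 0.19). After removal of the length and GC trend UQCC3 (-0.42) and COX19 (-0.22) were called lower among them. Of 43 subunits of complexes II to V 13 rose and 4 fell (39.5% called, median 0.06). Both shares are below the 51.6% of all genes, and their difference was not tested. The median control level of complex IV subunits was 469 TPM and that of complex IV assembly factors 17.6 TPM.

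Other pathways that meet the members were read from lists. Over all tested genes 51.6% were called, 30.4% higher and 21.2% lower, and no list was tested against these shares. Of 37 complex I subunits 12 rose and 6 fell (median log2 fold change 0.01). NDUFB5 (0.60) and NDUFV1 (0.69) rose, and NDUFB8 fell (-0.67). Without replicate 1 of both groups 10 complex I subunits fell, and 11 did after removal of the length and GC trend. Of 14 citric acid cycle enzymes 7 rose and 3 fell. OGDH, of the oxoglutarate dehydrogenase complex, rose (0.51), citrate synthase CS rose (0.49), and IDH3A fell (-0.49). Under quantile normalization 6 of these enzymes rose and 5 fell, and after the length and GC trend was taken out 5 rose and 5 fell. Of 13 ubiquinone synthesis enzymes 8 rose and 2 fell (median 0.36). COQ2, which joins the ring to the tail of ubiquinone, rose from 10.6 ± 0.99 to 20.3 ± 2.55 TPM, while the related kinase-like genes ADCK4 (0.81) and ADCK3 (-0.88) went opposite ways.

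Of 6 tested dehydrogenases that also feed ubiquinone, ETFDH of fatty acid oxidation rose (0.80) and DHODH of pyrimidine synthesis fell (-0.61). Across alternatives 1 to 3 of these dehydrogenases rose and 1 to 3 fell, and without siAHCYL1 replicate 1 the count was 2 up. Of 16 regulators of mitochondrial biogenesis 3 rose and 4 fell. For both lists the shares over all genes were 30.4% higher and 21.2% lower. ESRRG, a nuclear receptor that drives respiratory genes, rose from 3.50 ± 0.27 to 18.5 ± 3.02 TPM and its coactivator PPARGC1A from 11.1 ± 0.75 to 18.5 ± 2.70 TPM. POLRMT, the RNA polymerase of mitochondria, fell (-0.28).

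The promoters of the members held the ETS, NRF1 and YY1 cores, known from respiratory genes, more often than promoters at large. The comparison was with all 35116 promoters, whether or not their genes were expressed here. RefSeq gave 60 promoters for 50 of the 62 tested members, and motifs were searched on both strands. The ETS core CCGGAAG, bound by GABP, was in 38.3% of member promoters and 10.3% of all promoters. It was found in 21 of 50 members, 5 of 18 that rose and 0 of 3 that fell. The NRF1 core CGCATGCG was in 9 of 60 member promoters and 2.02% of all, and the YY1 core AAGATGGCG in 6 of 60 and 1.75%. NRF1 was found in 2 of 18 members that rose and 1 of 3 that fell, and YY1 in 1 of 18 and 1 of 3. The NF-kB pattern GGNNTTTCC, searched as well, was in 11.7% of member promoters and 6.26% of all. It was found in 6 of 50 members, 4 of 18 that rose and 0 of 3 that fell. C15orf48 held none of these 4 in the window shown above, which says only that these letters are not there.

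Replicate 1 stood apart in both groups for many members. It was the lowest of its group in 39 of 62 members in siNC (62.9%) and 27 of 62 in siAHCYL1 (43.5%), where over all genes this held in 31.2% and 23.4%. The members have short transcripts, with a median of 1580.5 bases against 3126 over all genes and 18 of 62 are under 1000 bases, where 4.85% of all genes are. Without replicate 1 of both groups 23 members rose and 6 fell, and over all genes 3964 rose and 3063 fell, against 4030 and 2814. Of 18 members with transcripts under 1000 bases 3 rose and 0 fell, and of 44 longer ones 17 rose and 5 fell. Over all genes 168 of 595 with short transcripts rose and 125 fell, and of 11674 with longer ones 3552 rose and 2606 fell. The difference between short and long members was not tested. The part of transcript length in these counts was not tested beyond the trend removal given above.

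**Figure D5:**
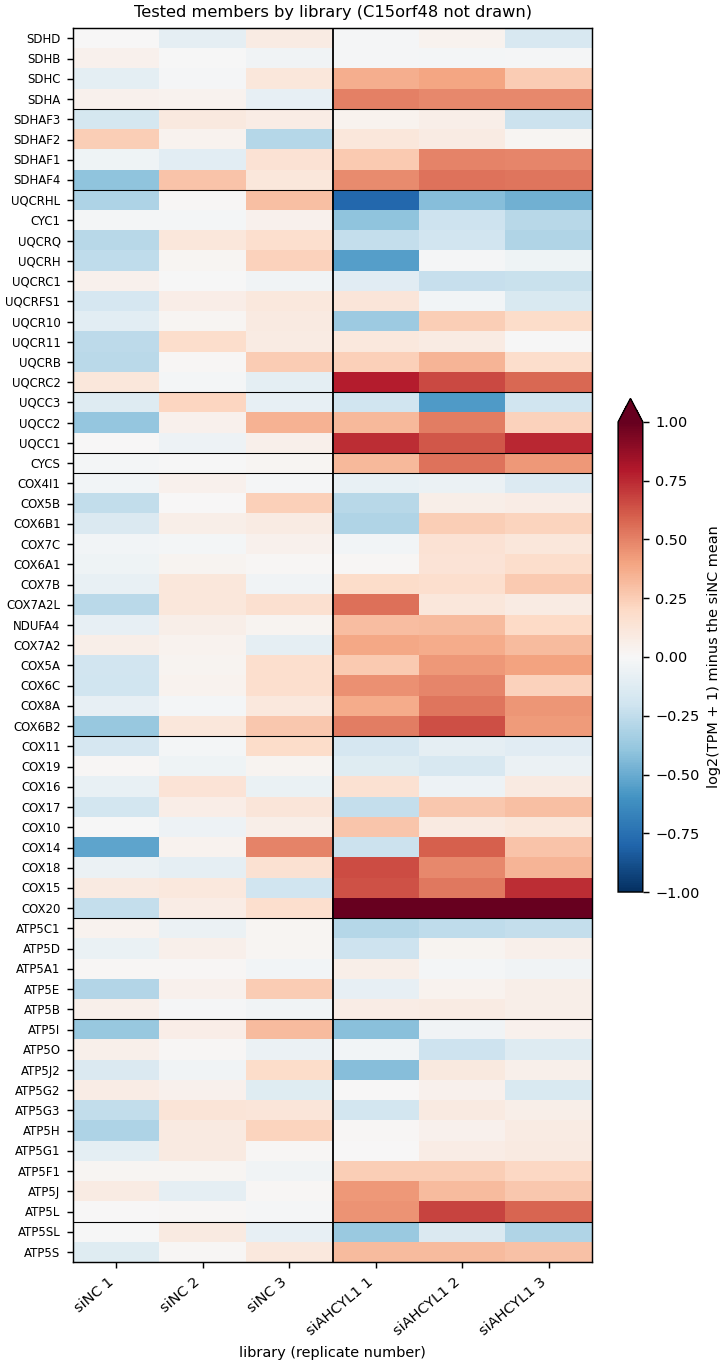
Log2(TPM + 1) of each library minus the siNC mean for each tested member except C15orf48, rows by complex and columns by library, blue for lower and red for higher. The siNC replicate 1 column is blue in the 39 rows where it is the lowest control, and COX20 exceeds the colour scale in siAHCYL1.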

How the data were processed

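Per the labels' protocols, the libraries were non-directional and sequenced on Illumina platforms. The authors deposited 1 table of TPM, and the submitters' processing notes name STAR, RSEM and GRCh38. For tool versions and the annotation, the answer is not given in the sources used here. TPM keeps no depth, so depth is unknown and no counting interval was computed. Columns with the prefix si were assigned to siAHCYL1 because only 1 other group exists.

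The deposited TPM were put on the log2(TPM + 1) scale, and limma 3.58.1 (R 4.3.3) gave a moderated two-sided test with an intensity trend, adjusted by Benjamini-Hochberg. Tested were the 13266 genes that reached 1 TPM in 3 or more of the 6 libraries. A gene was called at an adjusted p under 0.05, and the model held only the group. The procedure was tested on simulated data. It missed the recovery first required for 2-fold changes, smaller changes were recovered less often still, and the requirement was then set on larger changes. Most member differences are smaller than 2-fold, so a member that was not called may still differ. Of the members 62 were tested and 7 were not. The members, the 8 pathway lists, the motifs and the alternatives were chosen with earlier results of these data known. Every member could be named. From each pathway list up to 3 called genes were named, smallest adjusted p first, with the called gene most against its list. A few genes under this rule are not reported here. The transcripts for length, GC content and 3′ UTRs came from GENCODE, 1 per gene, and were found for all 62 tested members. Promoters and the microRNA came from RefSeq.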

Additional observations from a re-analysis of the deposited data

How the results depend on the processing

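No depth can be read from TPM, so no limit from depth is given. Removal of the length and GC trend was chosen after seeing the data, and so were its transcripts. The longest transcripts, tried first, gave fewer members called lower. Members called higher numbered 20 and ranged from 19 to 23. Members called lower numbered 5, and 8 under median-of-ratios scaling, 8 with the replicate block and 11 after removal of the length and GC trend, and with 1 library left out they ranged from 3 to 5. The median log2 fold change of the members was 0.071 and fell to 0.0067 under median-of-ratios scaling. C15orf48 ranged from 3.76 to 4.35 and AHCYL1 from -3.54 to -3.38. All 25 called members kept their direction in 15 alternatives, and 21 kept the call in each (not ATP5SL, COX7B, SDHAF4 and UQCRC1). Of 37 members not called, 16 passed in at least 1 alternative. With 1 library left out these were UQCRQ without siNC replicate 1, COX6B2, UQCC2 and UQCRB without siNC replicate 3, and ATP5O, COX17, COX6A1 and COX6B1 without siAHCYL1 replicate 1. The shares within subunit families do not depend on the fit. For these changes the cause was not tested.

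The deviations from group means correlated at 0.233, 0.001 and 0.154 between libraries 1, 2 and 3 of both groups. Since some libraries correlated better with another number, the numbers were not taken as pairs. With the replicate block 7919 genes were called in place of 6844, 21 members higher and 8 lower.

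Of the members not called, 22 changed the sign of their log2 fold change in some alternative, 61 values in all, of which 0 were past the threshold. Under median-of-ratios scaling these were ATP5A1 (-0.061), ATP5E (-0.059), ATP5G1 (-0.0066), ATP5H (-0.018), COX6B1 (-0.0083), UQCR10 (-0.041) and UQCR11 (-0.0048). Under quantile normalization these were ATP5A1 (-0.027), ATP5H (-0.054), COX16 (-0.034), SDHAF2 (-0.029), UQCR10 (-0.083) and UQCR11 (-0.012). Without replicate 1 of both groups these were ATP5A1 (-0.020), ATP5D (0.0068), ATP5E (-0.099), ATP5H (-0.091), COX16 (-0.016), COX7A2L (-0.036), SDHB (0.0071) and UQCR11 (-0.094). With the length and GC trend removed these were ATP5A1 (-0.018), ATP5B (-0.0051), ATP5E (-0.030), ATP5G1 (-0.048), COX6B1 (-0.056), UQCR10 (-0.039) and UQCR11 (-0.056). With 1 library left out the ranges of those that changed sign were -0.026 to 0.022 for ATP5A1, -0.087 to 0.041 for ATP5D, -0.14 to 0.13 for ATP5E, -0.095 to 0.024 for ATP5G2, -0.14 to 0.074 for ATP5G3, -0.11 to 0.16 for ATP5H, -0.33 to 0.024 for ATP5I, -0.19 to 0.074 for ATP5J2, -0.045 to 0.47 for COX14. The others ranged -0.17 to 0.073 for COX5B, -0.039 to 0.23 for COX6B1, -0.071 to 0.19 for SDHAF2, -0.13 to 0.044 for SDHAF3, -0.032 to 0.0062 for SDHB, -0.092 to 0.0088 for SDHD, -0.092 to 0.22 for UQCR10, -0.073 to 0.15 for UQCR11, -0.10 to 0.048 for UQCRFS1.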
